A study of Mus musculus with 8 samples.

Results

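The genes described here encode 59 regulators of DNA methylation, heterochromatin, Polycomb repression and related chromatin states, out of 21774 protein-coding genes on chromosomes 1 to 19, X and Y. The list was drawn up by function, but with earlier results of these data known. A gene was said to hold a region when the midpoint of a differential region lay in its RefSeq span or within 20 kb of either end. The regions are the authors' 2 deposited lists, called higher and lower after the direction of CMS-IP signal in Ogt knockout cells. CMS-IP is an antibody enrichment of bisulfite-treated DNA that recovers fragments carrying 5-hydroxymethylcytosine (5hmC). All samples came from mouse embryonic stem cells of genotype Ogt fl/fl, grown on mitomycin-treated fibroblast feeders and sorted to remove them. Ogt iKO cells had been cultured with 4-hydroxytamoxifen for 6 days and sorted for YFP, and control cells had been cultured without it, so that tamoxifen exposure, YFP sorting and Ogt loss go together. Each condition gave 2 CMS-IP and 2 input libraries, 8 samples in 4 groups. The labels do not say whether replicates were separate cultures, nor what drives the recombinase, and the lists hold no expression values with which the cell type or the loss of Ogt could be checked.

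OGT, the enzyme that attaches O-GlcNAc to nuclear and cytoplasmic proteins, binds the TET dioxygenases, which oxidise 5-methylcytosine to 5hmC. DNA methyltransferases write the substrate of TET, H3K9 methyltransferases and HP1 proteins hold heterochromatin silent, and Polycomb complexes keep developmental genes off in stem cells through marks on H3K27 and H2A. MLL-type enzymes methylate H3K4, and remodellers and deacetylases alter nucleosomes at the same genes. The values below are positions of 5hmC change at the genes for these proteins, and not their expression or activity.

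The lists held 8578 higher and 4016 lower regions, of which 68.1% were higher. They give a chromosome, a start and an end for each region, and no fold change, p-value or value per sample. Read depth is unknown, replicate error could not be computed, and no test was made. Intervals are 95% Wilson intervals for counting error over regions, which are not replicates. A gene with no region was not shown to be unchanged.

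Of the 59 genes, 36 held at least 1 region, 27 a higher region and 17 a lower region. Over all protein-coding genes the corresponding shares were 36.2%, 26.4% and 16.1%, and those of the 59 were 61.0%, 45.8% and 28.8%. Regions of both directions were found at 8 of the 59 genes, or 13.6%, against 6.35% of all protein-coding genes. Higher regions alone were found at 19, lower regions alone at 9, and no region at 23. These shares are not comparable as they stand, because the chromatin genes are long, with a median span of 52.7 kb against 17.2 kb for other protein-coding genes.

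**Figure D1:**
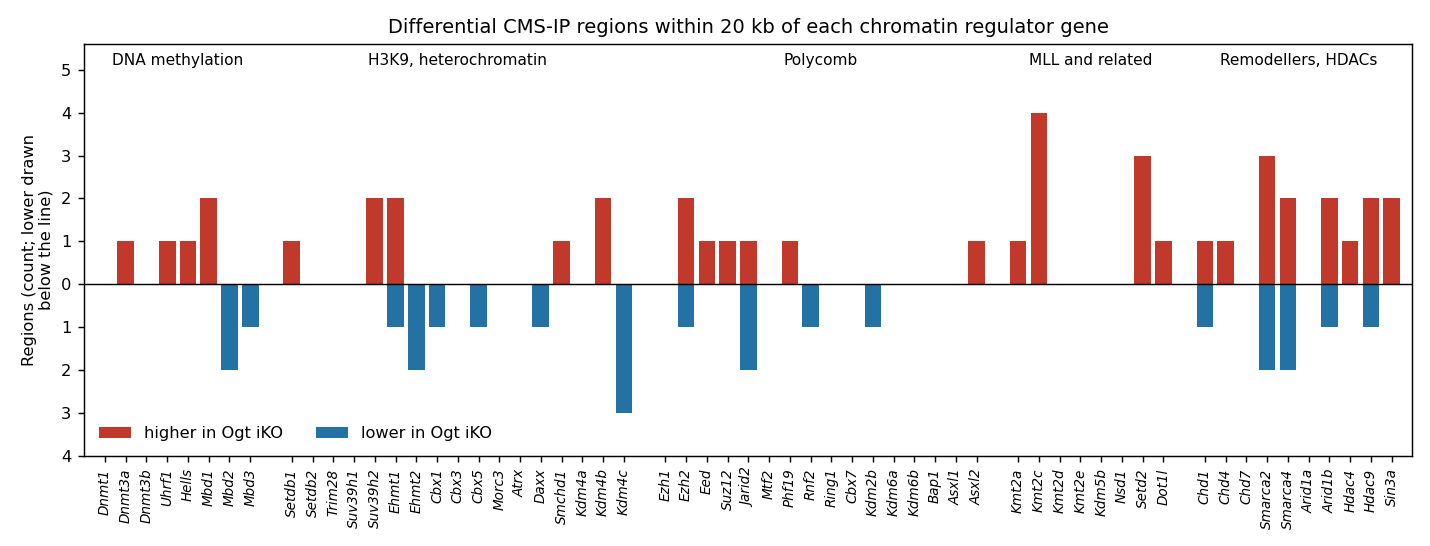
Number of differential CMS-IP regions (count) with a midpoint in the span of each of the 59 genes or within 20 kb of it. Bars above the line are regions higher in Ogt iKO cells and bars below it lower regions; Smarca2 has the most, 3 higher and 2 lower.

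Span length and the presence of a region moved together across the genome. Among other protein-coding genes, 9.64% of the shortest length decile held a region of either list and 72.5% of the longest decile. Genes of like length, below, are those of the same decile, and the longest decile is wide, from 109 to 2390 kb. When each of the 59 genes was set against other genes of its own length decile, 29.6 would hold a region, 22.9 a higher region and 13.6 a lower region. The observed 36, 27 and 17 were 1.22, 1.18 and 1.25 times these values. Regions of both directions would be held by 6.86 genes, and the observed 8 was 1.17 times that. For either list and for higher regions the difference depended on the flanks. With gene spans alone, 20 genes held a region and the ratio was 0.946 for either list. It was 0.904 for higher regions and 1.14 for lower ones. The 3 members on the X chromosome, Suv39h1, Atrx and Kdm6a, held none, on a chromosome where 6.56% of 960 other genes did.

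**Figure D2:**
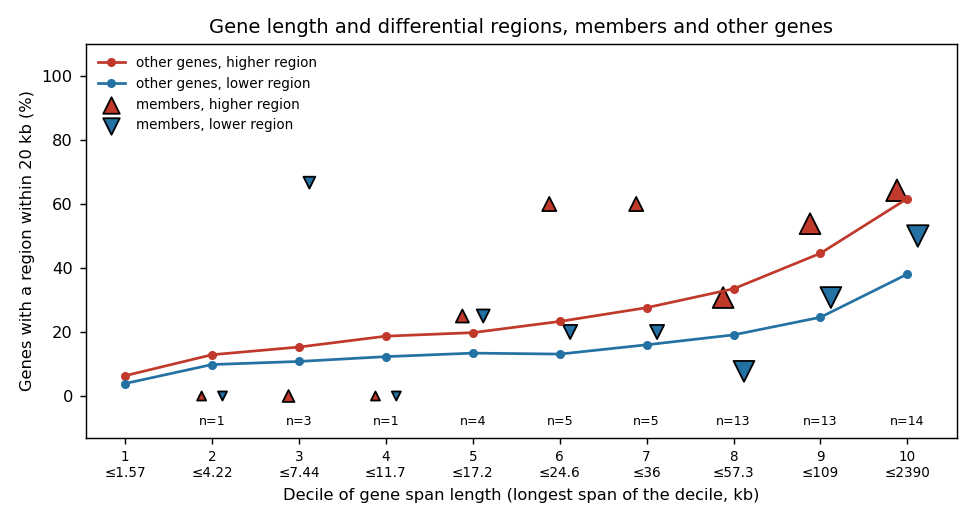
Share of genes (%) with a higher (red) or lower (blue) region, by decile of span length. Lines are other protein-coding genes and triangles the chromatin genes, sized by their number (n); most of the 59 lie in deciles 8 to 10, where the lines are highest.

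The 36 genes held 66 different regions, 42 higher and 24 lower. The share that was higher, 63.6% (95% Wilson interval 51.6 to 74.2%), had an interval that took in the 68.2% of the 8949 regions at other protein-coding genes. One higher region counted for both Uhrf1 and Kdm4b, which are neighbours. Inside the gene itself lay 39 regions, and 27 lay in the flanks, 13 of these within the span of another protein-coding gene. For 16 of the 36 genes all regions were in the flanks. Counted as pairs of a gene and a region, 58.1% of higher and 58.3% of lower regions lay inside the member, against 58.0% and 48.8% at other genes. The other genes here were not matched for length. Because the chromatin genes are longer and the flanks have a fixed width, neither the likeness for higher regions nor the difference for lower regions can be interpreted. Higher regions had a median width of 503 bp and lower regions 312.5 bp, against 541.5 and 319.5 bp over the whole lists.

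**Figure D3:**
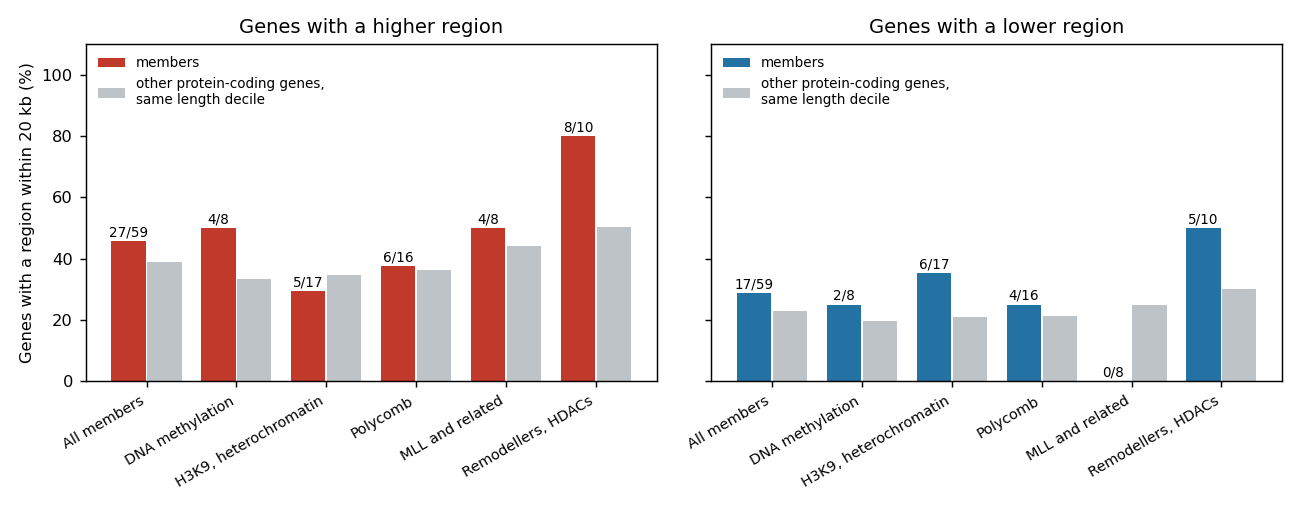
Share of genes (%) with a higher region (left) and a lower region (right) in each functional group, beside the share of other protein-coding genes of the same length deciles (grey). Numbers above the bars are genes with a region over genes in the group; the H3K9 group is below grey for higher and above it for lower regions.

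The regions nearest to a gene start are shown first with the sequence beside them. Start sites from RefSeq were at hand for 51 of the 59 genes; those of Mbd1, Mbd2, Kdm4b, Kdm6b, Kmt2e, Nsd1, Chd1 and Chd7 were not used here. Of the 59 member regions with a listed start, 5 had their midpoint within 5 kb of it, at Cbx1, Daxx, Ezh2, Mbd3 and Ehmt2. All 5 were lower in Ogt iKO cells, and all 5 midpoints lay upstream of the gene; the region at Cbx1 reached into the gene span. The limit of 5 kb was chosen after these values had been seen, and the next region, at Phf19, was higher and lay at 5.36 kb, just outside it. No member region overlapped the window from 250 bases before to 50 after a listed start. The 250 bases before each of the 5 starts are given below, from the RefSeq table of GRCm38.p6 (the build named mm10 in the lists), 5′ to 3′ on the strand of the gene. Capitals mark CG, the dinucleotide at which most cytosine methylation and 5hmC occurs; it reads the same on both strands.
Cbx1, chr11:96788885-96789134, plus strand: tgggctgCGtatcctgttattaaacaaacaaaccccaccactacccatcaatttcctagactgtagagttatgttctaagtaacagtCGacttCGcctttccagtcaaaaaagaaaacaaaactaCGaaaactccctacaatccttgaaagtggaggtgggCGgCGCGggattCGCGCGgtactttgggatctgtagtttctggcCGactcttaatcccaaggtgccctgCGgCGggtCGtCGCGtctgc
Daxx, chr17:33909195-33909444, plus strand: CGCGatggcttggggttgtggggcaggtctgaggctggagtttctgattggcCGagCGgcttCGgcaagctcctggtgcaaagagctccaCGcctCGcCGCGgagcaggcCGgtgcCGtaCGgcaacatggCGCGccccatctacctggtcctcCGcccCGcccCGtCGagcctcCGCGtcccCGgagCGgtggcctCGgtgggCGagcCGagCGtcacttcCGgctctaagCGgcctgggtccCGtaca
Ezh2, chr6:47595031-47595280, minus strand: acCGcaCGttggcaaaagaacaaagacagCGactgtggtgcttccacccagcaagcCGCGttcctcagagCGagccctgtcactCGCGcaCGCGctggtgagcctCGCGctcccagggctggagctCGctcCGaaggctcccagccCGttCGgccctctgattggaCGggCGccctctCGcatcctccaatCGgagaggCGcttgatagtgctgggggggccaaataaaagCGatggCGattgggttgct
Mbd3, chr10:80399532-80399781, minus strand: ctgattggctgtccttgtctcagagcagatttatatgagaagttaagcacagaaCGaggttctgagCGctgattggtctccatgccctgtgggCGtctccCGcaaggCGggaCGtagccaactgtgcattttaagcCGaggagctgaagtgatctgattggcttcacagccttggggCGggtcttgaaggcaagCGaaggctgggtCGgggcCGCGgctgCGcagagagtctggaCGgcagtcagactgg
Ehmt2, chr17:34898224-34898473, plus strand: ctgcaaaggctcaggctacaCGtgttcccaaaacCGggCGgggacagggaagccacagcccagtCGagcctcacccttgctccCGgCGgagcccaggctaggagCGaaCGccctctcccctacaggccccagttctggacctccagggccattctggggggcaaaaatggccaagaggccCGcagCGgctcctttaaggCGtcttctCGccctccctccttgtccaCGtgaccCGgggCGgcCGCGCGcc

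The window of Cbx1, which encodes the HP1 beta protein that binds methylated H3K9, holds 16 CG in 250 bases, a number reached by 34.1% of the windows of protein-coding genes. Its lower region, chr11:96787892-96788863, 972 bp wide, ended 21 bases short of this window and 272 bases before the start. The Daxx window holds 29 CG, reached by 8.77% of windows, and that of Ezh2 holds 23, reached by 17.3%. Mbd3 and Ehmt2 have 14 and 18 CG, reached by 39.5% and 29.0%. The 51 genes had CG-rich starts as a set, with a median of 25 CG (taking the richest window of each gene) against 11 for 17492 protein-coding genes. The median was 27.5 over the 32 genes with a region and 23 over the 19 without, and their quartiles overlapped (21.5 to 31.5 and 14.5 to 26).

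Direction followed distance from the start at other protein-coding genes. Within 5 kb of a start, 53.9% of 1136 regions at other genes were higher (Wilson interval 51.0 to 56.8%), and at 50 kb or more 72.2% of 2748 were. For the chromatin genes the counts were 0 of 5 within 5 kb, 10 of 14 from 5 to 20 kb, 14 of 18 from 20 to 50 kb and 14 of 22 beyond. Within 10 kb they were 2 of 8, so the bin nearest to the start rests on few regions and on where it was cut. Further genes of the same families, counted at the end, held regions of both directions within 5 kb of a listed start. Those regions were higher at Rbbp4, Kdm5c and Rcor1 among others, lower at Lcor among others, and of both directions at Smarcc1.

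**Figure D4:**
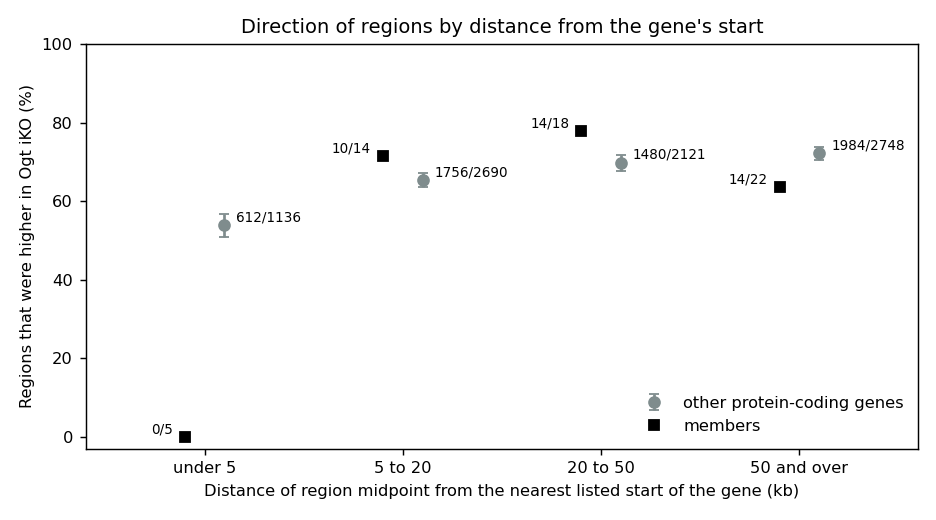
Share of regions (%) that were higher in Ogt iKO cells, by distance (kb) of the midpoint from the nearest listed start of the gene. Squares are the chromatin genes, circles other protein-coding genes; bars on the circles are 95% Wilson intervals and labels give higher over all regions, 0 of 5 for the chromatin genes under 5 kb, a limit set after the values were seen.

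Among the 8 genes of DNA methylation, 4 held higher regions alone, 2 lower regions alone and 2 none. The length-matched numbers were 2.65 for higher and 1.57 for lower regions. The regions were 5 higher and 3 lower, against 3.92 and 1.87 at other genes of like length. Of the group's 8 regions, 1 lay inside its gene. Neither Dnmt1, the maintenance methyltransferase, nor Dnmt3b, a de novo methyltransferase, held a region, and the nearest were a higher region 25.9 kb and a lower region 105 kb from their spans. At Dnmt3a, the other de novo enzyme, a higher region of 254 bp lay 4.09 kb before the span (chr12:3797340-3797593) and 9.51 kb from the nearest start. Hells, a remodelling helicase needed for methylation of repeats, had a higher region of 1013 bp across the far end of the gene (chr19:38970410-38971422). At Uhrf1, which brings DNMT1 to newly replicated DNA, the single higher region (chr17:56339902-56340225) lay 16.6 kb past the gene and inside Kdm4b.

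The methyl-CpG-binding genes differed in direction. Both regions at Mbd1 were higher (chr18:74286581-74287751 and chr18:74295548-74295976), and both lay in its neighbour Cfap53. The regions at Mbd2 were lower, 1 inside the gene (860 bp, chr18:70588701-70589560) and 1 at 8.79 kb from it (247 bp, chr18:70559318-70559564). Of 2164 other genes in the length decile of Mbd2, 24.6% held as many regions of either list. This measure is given below for some genes only. For the remaining genes with several regions it was 27.0% (Ehmt1, Jarid2, Arid1b), 24.6% (Kdm4b, Chd1), 15.0% (Sin3a), 7.36% (Suv39h2) and 5.89% (Mbd1). For genes with 1 region it ran from 24.4% (Mbd3 and Daxx) to 72.5% (Dnmt3a among others). Mbd3, a subunit of the NuRD deacetylase complex that no longer binds methylated CpG, had 1 lower region of 274 bp (chr10:80404047-80404320), 4.65 kb upstream and within Uqcr11.

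In the H3K9 and heterochromatin group, 10 of 17 genes held a region. Lower regions were found at 6 genes against 3.58 by length, and higher regions at 5 against 5.90. In numbers of regions, other genes of like length gave 9.49 higher and 4.39 lower. The 17 regions divided into 8 higher and 9 lower, a higher share of 47.1% (Wilson interval 26.2 to 69.0%), and the 68.4% given by other genes of like length fell within that interval. Kdm4c alone gave 3 of the 9 lower regions, and 6 remained without it. Inside the genes the count was 5 higher and 6 lower.

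The methyltransferases of the group took both directions. Ehmt1 and Ehmt2 encode GLP and G9a, partners that mono- and dimethylate H3K9. Ehmt1 held higher regions of 258 bp (chr2:24813371-24813628) and 878 bp (chr2:24903142-24904019) and a lower region of 478 bp (chr2:24910667-24911144), which lay 6.65 kb from the second. At Ehmt2, with a span of 15.6 kb, both regions were lower, 693 bp upstream of the gene (chr17:34893174-34893866) and 268 bp near its far end (chr17:34912589-34912856). As many regions were held by 5.89% of 2173 genes of like length. Suv39h2, an enzyme of pericentromeric H3K9 trimethylation, had higher regions on both sides, in Dclre1c (1140 bp, chr2:3440829-3441968) and Hspa14 (839 bp, chr2:3490952-3491790), and none inside. Setdb1, which trimethylates H3K9 at retroelements, had 1 higher region of 1053 bp in Anxa9 (chr3:95303613-95304665). Its midpoint was 19.4 kb from the span, just inside the 20 kb limit. Setdb2 held none within 120 kb, and the nearest to Trim28, the corepressor that recruits SETDB1, was a higher region at 59.1 kb.

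All 3 HP1 genes lacked a higher region, as did most genes of like length. Of these, 23.3% (Cbx1), 33.5% (Cbx5) and 19.8% (Cbx3) held one. Cbx1 had the lower region at its start described above, and Cbx5 (HP1 alpha) had a lower region of 200 bp, the minimum width, near its far end (chr15:103192361-103192560). Cbx3 (HP1 gamma) held none, with a higher region 130 kb away. Of the pair that loads histone H3.3 into heterochromatin, Daxx had a lower region of 302 bp (chr17:33906102-33906403) within Smim40, 3.15 kb before its span, and Atrx had none within 226 kb. Smchd1, which acts in X inactivation, had 1 higher region of 200 bp (chr17:71347076-71347275). Morc3, an ATPase that takes part in silencing of retroelements, held none, and the nearest was a higher region at 181 kb.

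The H3K9 demethylase genes Kdm4b and Kdm4c held regions of opposite direction, and Kdm4a held none within 98.7 kb. In Kdm4b both regions were higher, 324 bp (chr17:56339902-56340225, shared with the flank of Uhrf1) and 691 bp (chr17:56399325-56400015). In Kdm4c all 3 were lower: 396 bp at chr4:74265606-74266001, 200 bp at chr4:74283304-74283503 and 323 bp at chr4:74356501-74356823. The nearest higher region to Kdm4c was 309 kb away, and 27.0% of 2163 genes of like length had as many regions.

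**Figure D5:**
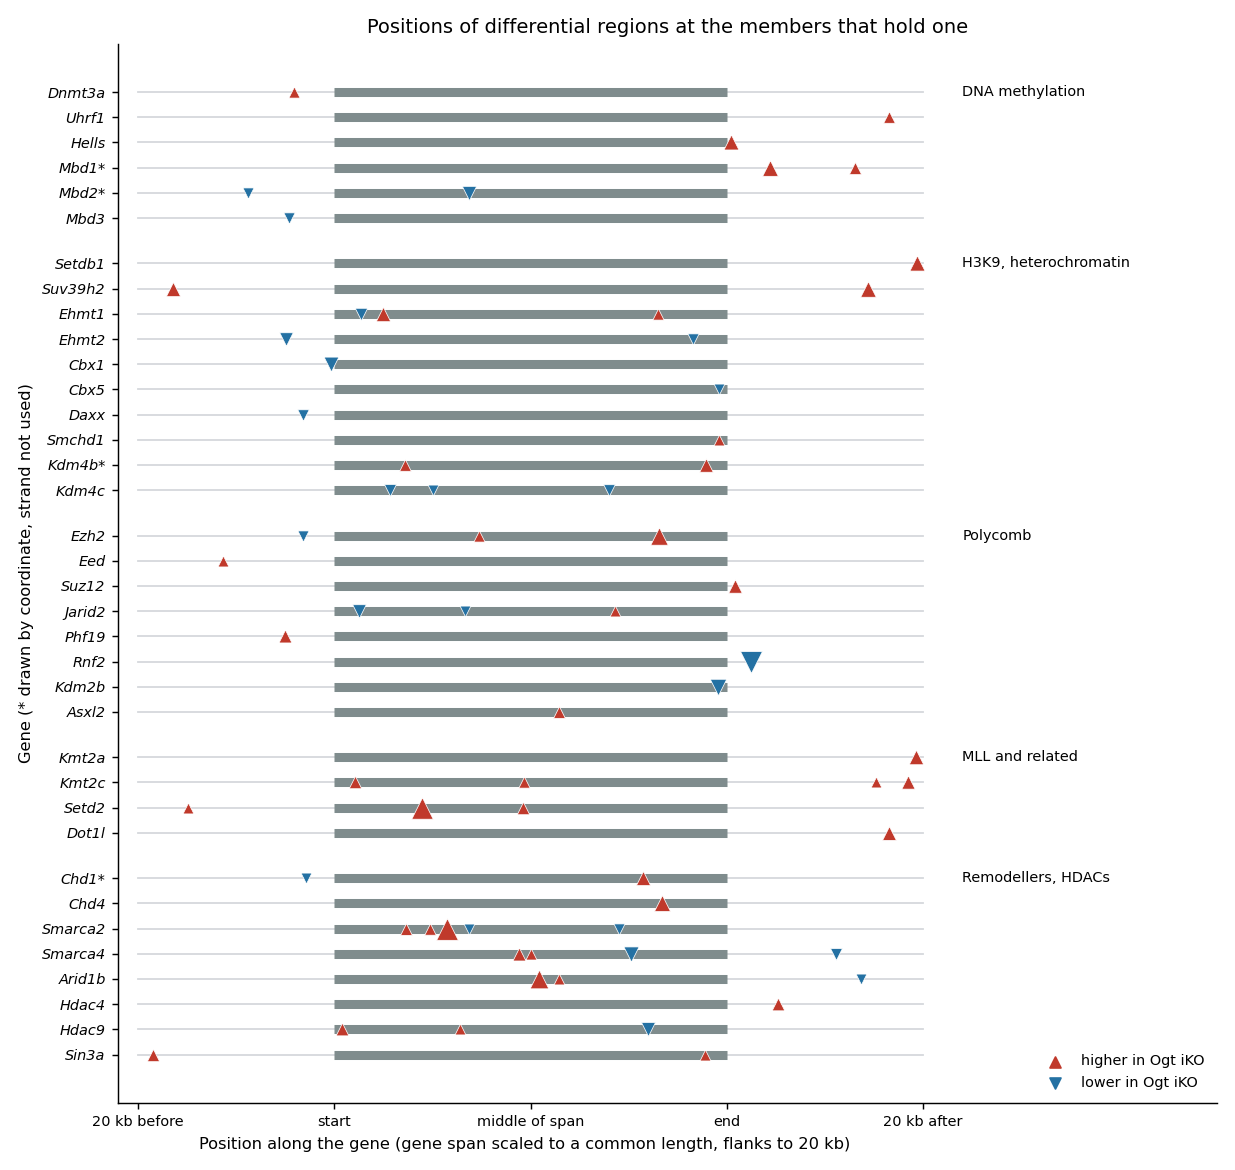
Position of each region along the 36 genes that hold one, with gene spans (grey bars) scaled to a common length and flanks drawn to 20 kb. Genes are drawn in the direction of transcription, except Mbd1, Mbd2, Kdm4b and Chd1 (marked *), which are drawn by coordinate. Triangles up (red) are higher and triangles down (blue) lower regions, larger when wider; the lower regions of Cbx1, Daxx, Ezh2, Mbd3 and Ehmt2 stand just before the start.

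The Polycomb group came closest to its length-matched numbers of genes with a region. Regions were found at 8 of 16 genes against 7.59, higher regions at 6 against 5.80 and lower regions at 4 against 3.42. There were 7 higher and 5 lower regions, against 9.04 and 4.15 at other genes of like length. Inside a gene lay 7 of these regions, and none of the flanking ones lay in another protein-coding gene.

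The 3 core subunits of PRC2, the complex that methylates H3K27, each held a higher region. Of other genes of like length, 44.6% (Ezh2), 33.5% (Suz12) and 27.6% (Eed) held one. Ezh2, the catalytic subunit, held 2 inside the gene, 1621 bp (chr6:47540667-47542287) and 249 bp (chr6:47571149-47571397), besides the lower region of 251 bp upstream of its start (chr6:47598357-47598607). As many regions were held by 7.99% of 2164 genes of like length. Suz12 had 1 higher region of 676 bp, 0.882 kb past its end (chr11:80034668-80035343), and Eed 1 of 211 bp, 11.3 kb upstream (chr7:89992207-89992417). The second catalytic gene, Ezh1, held none, and the nearest was a lower region at 26.3 kb. Accessory subunits varied. Jarid2, which helps PRC2 to its targets, held lower regions of 704 bp (chr13:44742230-44742933) and 200 bp (chr13:44794229-44794428) toward its start and a higher region of 200 bp (chr13:44866992-44867191) further in. Phf19 had a higher region of 576 bp upstream (chr2:34919049-34919624), 4.98 kb from the span and 5.36 kb from the listed start, and Mtf2 none, with a lower region 25.2 kb off.

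Of the PRC1 genes, Rnf2, which encodes the H2A ubiquitin ligase RING1B, stood beside the widest lower region of the set. This region spanned 2948 bp (chr1:151465437-151468384), with its midpoint 2.49 kb past the end of the gene, and 0.423% of the lower list was as wide. A higher region lay just outside the 20 kb limit, at 21.0 kb from Rnf2. Kdm2b, which guides PRC1 to CpG islands, held a lower region of 1367 bp inside its far end (chr5:122872491-122873857), and 4.81% of lower regions were as wide. Ring1 and Cbx7 had none, with lower regions at 68.6 and 83.7 kb. In the PR-DUB complex, which removes ubiquitin from H2A, Asxl2 held a higher region of 347 bp (chr12:3474818-3475164), while Asxl1 and Bap1 held none within 47.4 and 83.6 kb. The H3K27 demethylase genes Kdm6a and Kdm6b also held none, the nearest to Kdm6b being a higher region at 23.4 kb.

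The MLL group, with the enzymes of H3K36 and H3K79, had 9 higher regions and 0 lower regions (100% higher, Wilson interval 70.1 to 100%), where other genes of like length gave 69.2%. Higher regions were found at 4 of 8 genes against 3.52 by length, and lower regions at 0 against 1.99. In numbers of regions, other genes of like length gave 5.38 higher and 2.4 lower. Kmt2c and Setd2 account for 7 of the 9 regions. Only 4 of the 9 lay inside the group's genes, and the other 5 lay in neighbouring protein-coding genes.

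Kmt2c, an H3K4 monomethyltransferase of enhancers, held higher regions of 268 bp (chr5:25389152-25389419) and 483 bp (chr5:25486690-25487172). A further 2, of 651 and 200 bp, lay in its neighbour Galnt11 (chr5:25253039-25253689 and chr5:25256468-25256667). As many regions were found at 15.1% of 2163 genes of like length. Setd2, the enzyme of H3K36 trimethylation, held a higher region of 2818 bp (chr9:110550455-110553272), a width reached by 2.60% of the higher list. A second lay inside at 483 bp (chr9:110573669-110574151) and another of 200 bp outside, in Kif9 (chr9:110517515-110517714). For Setd2, 7.99% of 2164 genes of like length had as many. Kmt2a, the founding MLL gene, had 1 higher region of 900 bp in Ift46 (chr9:44783578-44784477), 19.3 kb away, and a further one just beyond the limit at 21.0 kb. Dot1l, the H3K79 methyltransferase, had 1 of 749 bp in Jsrp1 (chr10:80811605-80812353). The paralog Kmt2d, the MLL-family gene Kmt2e, the H3K36 enzyme gene Nsd1 and the H3K4 demethylase gene Kdm5b held none. Their nearest regions were a lower one at 44.8 kb and higher ones at 28.2, 66.8 and 108 kb.

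Remodellers and deacetylases held the most regions per gene and also had the longest median span of the groups, 131 kb. Of 10 genes, 8 held a higher region against 5.03 by length, and 5 of these also held a lower region against 1.83. There were 14 higher and 7 lower regions, against 9.19 and 3.87 at other genes of like length. They gave a higher share of 66.7% (Wilson interval 45.4 to 82.8%), and 16 of the 21 lay inside the genes.

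Smarca2 and Smarca4, the alternative ATPases of the BAF complex, carried 5 and 4 regions. In Smarca2 the 3 higher regions, of 356 bp (chr19:26636616-26636971), 300 bp (chr19:26647057-26647356) and 2885 bp (chr19:26653562-26656446), followed each other within 20 kb. The last was the widest higher region of the set, a width reached by 2.40% of the higher list. Lower regions of 200 bp (chr19:26664655-26664854) and 253 bp (chr19:26730600-26730852) followed, the first after a gap of 8.21 kb. Smarca4 had the same order along the gene. Its higher regions of 591 bp (chr9:21657304-21657894) and 228 bp (chr9:21660182-21660409) preceded lower ones of 1054 bp (chr9:21682104-21683157) and 374 bp (chr9:21715126-21715499), the last beyond the gene. Of genes of like length, 7.91% of 2163 held as many regions as Smarca2 and 2.08% of 2164 as many as Smarca4.

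Of the BAF subunits that bind DNA through an ARID domain, Arid1b held 2 higher regions, 1957 bp (chr17:5177773-5179729) and 200 bp (chr17:5196167-5196366), and a lower one of 200 bp past its end (chr17:5361228-5361427). Arid1a held none within 65.7 kb. Among the CHD remodellers, Chd4, the NuRD ATPase, had a higher region of 1242 bp (chr6:125124244-125125485). Chd1, which binds methylated H3K4, had a higher region of 821 bp inside (chr17:15757695-15758515) and a lower one of 200 bp outside (chr17:15701953-15702152). Chd7, with a span of 178 kb, held none, and the nearest was a lower region at 44.2 kb.

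Hdac9, a class IIa deacetylase gene of 870 kb, held 2 higher regions, of 200 bp (chr12:34637409-34637608) and 536 bp (chr12:34899666-34900201), and a lower one of 793 bp (chr12:34220843-34221635). Its count was matched by 27.0% of 2163 genes in the longest decile. Its relative Hdac4, at 267 kb, had 1 higher region of 523 bp outside the span (chr1:91923328-91923850). Sin3a, the scaffold of a deacetylase complex that also binds OGT and TET1, had higher regions of 218 bp inside the gene (chr9:57125110-57125327) and of 461 bp in Ptpn9 (chr9:57053303-57053763).

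The 23 genes without a region had their nearest one at a median of 68.6 kb, from 23.4 kb (Kdm6b) to 409 kb (Kdm6a on X). It was higher for 13 and lower for 10, and 5 of the 23 had it within 30 kb.

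Further genes of the same families, 105 symbols of which 103 were found in the gene table, were counted in the same way. Regions were found at 50 of 103, higher regions at 37 and lower regions at 22, against length-matched shares of 46.3%, 35.1% and 20.7%. The 76 regions were 68.4% higher. Related MLL-type genes held 7 higher and 2 lower regions, against 9.23 and 4.29 at other genes of like length. Both directions were found at Wdr5, a shared MLL core subunit, and 2 higher regions at the X-linked demethylase gene Kdm5c. Related remodeller and deacetylase genes held 31 higher and 9 lower regions, against 22.1 and 9.91 by length. Most were held by Srcap (4 higher, 1 lower), then Chd9 (3 and 0), Ncor1 (3 and 0), Chd6 and Ep400 (2 and 1 each). Related DNA methylation genes held a region at 1 of 8 against 2.98 by length, where the members of that group held one at 6 of 8 against 3.55. Related H3K9 genes held 2 higher and 4 lower regions, against 5.01 and 2.5 by length, and Kdm3b held 1 of each. Related Polycomb genes held 12 higher and 8 lower regions, against 16.1 and 7.44 by length. Among them, Lcor held 2 higher and 1 lower, Rbbp4 2 higher and Rybp 1 of each. Further genes with at least 2 regions were Chd3, Chd8 and Rcor1 (2 higher each), Chd5 and Smarcc1 (1 of each) and Gatad2a (2 lower).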

How the data were processed

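CMS-IP and input libraries of 8 samples (4 groups of 2, assigned from titles) lie behind 2 region lists that the authors deposited, which hold positions in bp on mm10. Bismark and MACS2 are named per the submitters' processing notes, with no role or version. The differential test, its threshold and the use of inputs and spike-ins are not given in the sources used here. The file names write the knockout with an extra letter, read here as the Ogt iKO of the labels.

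Gene spans came from a RefSeq table of GRCm38.p6 (49997 genes; 402 off the main chromosomes were left out) and start sites from a RefSeq promoter table. Midpoints were assigned to spans extended by 20 kb. The length-matched number is the sum, over members, of the share of other protein-coding genes in the same of 10 length bins that hold a region. For numbers of regions, the mean number per gene was summed in place of the share. Starts are printed 1-based. Every member with a region was named; of the related genes, those with 2 or more, of which 1, a Polycomb gene with 2 lower regions, is not reported here. Members and lists were chosen with earlier results of these data known. Exons, introns and sequence of the regions were not analysed here. Lookups of the deposited lists were checked against a direct search, and length matching was tested on simulated calls. Python 3.11.15, numpy 2.4.6, pandas 2.3.3 and scipy 1.17.1 were used.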

Additional observations from a re-analysis of the deposited data

How the results depend on the processing

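Of 94 recomputed values of 9 results, 77 stayed within 1.5 times the reported count or within the counting interval of the share, or, for a ratio, within 1.5 times and on the same side of 1. Counts moved further in 15, and in 2 a ratio passed from above to below 1. Extending spans by 0 or 1 kb left 20 or 23 genes with a region, 15 or 17 with a higher region and 10 or 11 with a lower one, and 25 or 27 higher and 14 or 15 lower regions; fewer bases are searched by construction. At 0 kb the ratios to genes of like length were 0.946 for either list and 0.904 for the higher list, below 1, and the cause was not tested. Extending by 50 kb gave 27 genes with a lower region and 41 lower regions. With regions narrower than 453 bp, the median, left out, 24 higher and 9 lower regions remained, and 9 genes with a lower region. Over the alternatives the ratio was 0.946 to 1.40 for either list, 0.904 to 1.35 for higher regions and 1.14 to 1.59 for lower regions, and the share of higher regions was 57.3 to 72.7%. Assigning each region to the nearest protein-coding gene left 28 genes with a region, 31 higher and 20 lower regions. No paired analysis was possible because the lists hold no values per sample, and leaving out a replicate was not possible for the same reason.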
